A study of Mus musculus with 16 samples.

Results

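The TNF superfamily ligands and receptors described here are 10 genes, found in the deposited table by their symbols. They are the ligand genes Tnf, Lta, Ltb, Tnfsf9, Tnfsf10 and Tnfsf13b and the receptor genes Tnfrsf1a, Tnfrsf1b, Fas and Ltbr. All 10 were among the 13085 genes of the table, and all 10 passed the filter on low values.

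The study asked how loss of NFAM1, an immunoreceptor that signals through an ITAM, alters the activation of mouse monocytes. Monocytes of C57BL/6 animals were cultured without stimulus or with IFN-γ plus MegaCD40L, a multimeric CD40 ligand, at 1 ug/mL. Polyadenylated RNA was sequenced at 6 h or 24 h in 16 libraries. By the titles there were 8 groups of 2 libraries, named here by the number in each title.

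At 6 h without stimulus, libraries 1 and 2 were NFAM1+/+ and libraries 3 and 4 were labelled NFAM1-/-. At 6 h with IFN-γ plus CD40L, libraries 26 and 10 were NFAM1+/+ and libraries 11 and 12 were labelled NFAM1-/-. At 24 h without stimulus, libraries 44 and 45 were NFAM1+/+ and libraries 43 and 46 were labelled NFAM1-/-. At 24 h with IFN-γ plus CD40L, libraries 56 and 57 were NFAM1+/+ and libraries 55 and 58 were labelled NFAM1-/-. The NFAM1-/- animals lacked exons 2 and 3 of Nfam1 in every cell, and the ages of the animals were not given.

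Several labels limit what the groups can show. In 4 libraries at 24 h, numbers 44, 46, 56 and 58, the genotype tag states the opposite of the title, so genotype at 24 h is given by title, with each member's value also by tag and without those libraries. Leaving them out leaves a single library in each 24 h group, so those values give the size of a difference only. The cell type tag reads PBL monocyte, while the study's methods take mouse monocytes from bone marrow, and the treatment text also mentions edited human cells. The IFN-γ concentration differs between the sources. Which animal gave which library was not stated. The study describes fewer animals of each genotype than there are libraries of it, so libraries of different groups may share animals. The tests treat all libraries as independent, and each p-value below measures the spread between libraries.

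Levels are given as CPM, counts per 1000000 reads of the scaled library size, and changes as log2 differences. The reads on listed genes ran from 48295939 in library 2 to 88514341 in library 3, and 1 CPM stood for 50.9 to 114.9 reads. A gene was called when limma gave a Benjamini-Hochberg adjusted p under 0.05 over all 12782 genes tested together with a fold change of at least 2. "Rose" and "fell" are used for called genes only.

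Nfam1 itself was read first, as a check of the genotype labels. It stood at 432 and 408 CPM in libraries 1 and 2 and at 299 and 321 CPM in libraries 3 and 4. With the stimulus at 6 h it was at 133 and 129 CPM in libraries 26 and 10 and at 135 and 127 CPM in libraries 11 and 12. At 24 h it was at 441, 463, 495 and 391 CPM in libraries 43, 44, 45 and 46, and at 200.9, 271, 252 and 223 CPM in libraries 55, 56, 57 and 58. The libraries labelled NFAM1-/- lay below the NFAM1+/+ libraries in 3 of the 4 sets by title and overlapped them in stimulated cells at 6 h. No library was near 0. The value counts reads over the whole gene, including exons that were not deleted, so it cannot settle a library's genotype.

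The labelled cell type was compared with marker lists. All 10 monocyte markers were in the table, and their summed level ran from 24850 to 27420 CPM without stimulus at 6 h and from 28460 to 32740 CPM at 24 h. With the stimulus the sum was 13240 to 14890 CPM at 6 h and 11510 to 14700 CPM at 24 h. Lyz2, the lysozyme gene of myeloid cells, was the most abundant by its mean and in 12 of the 16 libraries, with another marker higher in stimulated libraries 26, 10, 11 and 12. The monocyte markers were thus present in every library, at a lower sum in the stimulated ones. Lyz2 alone stood at 15690 to 17380 CPM without and at 2667 to 4159 CPM with the stimulus at 6 h. At 24 h it stood at 19870 to 23260 CPM without and at 4827 to 7390 CPM with it. Limma called 2 of the 10 higher and 6 lower with the stimulus at 6 h, beside 19.1% and 20.6% of all genes. The 24 h comparison called 1 higher and 7 lower, beside 14.6% and 18.7%.

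Markers of other cells were at lower sums and also moved with the conditions. Of 10 neutrophil markers, all 10 were in the table, summing to 108.5 to 263 CPM without stimulus and 87.6 to 358 CPM with it at 6 h, and to 668 to 1178 CPM and 131 to 228 CPM at 24 h, with S100a9 the most abundant by its mean and in 14 of the 16 libraries. Of 10 dendritic cell markers, all 10 were in the table, summing to 118 to 148 CPM and 415 to 541 CPM at 6 h and to 298 to 459 CPM and 583 to 670.3 CPM at 24 h, with Bst2 the most abundant by its mean and in 9 of the 16 libraries. Bst2, which encodes tetherin, is also an interferon-induced gene. At 24 h Bst2 alone stood at 56.2 to 94.8 CPM without and at 507 to 605 CPM with the stimulus. Of the 10 dendritic cell markers, limma called 3 higher and 5 lower with the stimulus at 24 h, with a median log2 change of -0.70. At 6 h it called 5 higher and 2 lower.

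The lymphocyte lists were mostly absent. Of 10 B cell markers, 4 were in the table, summing to 135 to 153 CPM and 311 to 371 CPM at 6 h and to 128 to 199 CPM and 34.6 to 42.9 CPM at 24 h. Ighm was the most abundant in every library, and Ms4a1, Pax5, Ebf1, Vpreb3 and Blk were among those not in the table. At 6 h Ighm alone stood at 129.5 to 148.2 CPM without and at 309.7 to 369.5 CPM with the stimulus. Of the 4 B cell markers, limma called 1 higher and 2 lower with the stimulus at 6 h, with a median log2 change of -1.60. Of 10 T cell markers, 3 were in the table, summing to 0.274 to 0.922 CPM and 7.11 to 11.2 CPM at 6 h and to 0.858 to 1.27 CPM and 1.22 to 1.85 CPM at 24 h. Cd247 was the most abundant by its mean and in 10 of the 16 libraries, though not in libraries 3, 4, 43, 45, 46 and 56, and Cd3d, Cd3e, Cd3g, Cd2, Cd5, Cd6 and Thy1 were not in the table. Of 10 NK cell markers, 2 were in the table, summing to 13.9 to 17.7 CPM and 4.32 to 6.26 CPM at 6 h and to 13.6 to 21.1 CPM and 0.362 to 0.452 CPM at 24 h. Klrd1 was the most abundant in every library, and Ncr1, Klrb1c, Nkg7, Gzma, Prf1, Eomes, Klre1 and Klra8 were not in the table. These markers' part in the results below was not tested. In bulk RNA, fewer cells of a type and less RNA per cell cannot be told apart.

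TNF superfamily ligands are mostly trimeric proteins of the cell surface, some of them shed, that bind trimers of matching receptors. Receptors with a death domain, such as those for TNF, FAS ligand and TRAIL, can lead either to NF-kB and MAP kinase signalling or to caspase-driven or necroptotic death. Other receptors recruit TRAF adaptors only. CD40, whose ligand was part of the stimulus, belongs to the same receptor family, and monocytes are a main source of TNF in inflammation.

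Some members lie side by side in the genome. By the RefSeq annotation of GRCm38.p6, Ltb, Tnf and Lta are consecutive genes on chromosome 17, and Tnfsf9 lies on the same chromosome next to Cd70. Ltbr and Tnfrsf1a flank Scnn1a on chromosome 6, and Tnfrsf1b is next to Tnfrsf8 on chromosome 4. RefSeq also places the noncoding gene Gm11110 across Tnfsf9, and in a library without strand information reads of overlapping genes cannot be separated.

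Promoters from 250 bases before to 50 bases from the start site on were taken from RefSeq (GRCm38.p6) for 9 of the 10 members, 10 promoters in all since Tnfsf13b had 2. Both strands were searched for the GAS letters TTCNNNGAA, named for the IFN-γ-activated site, the ISRE core GAAANNGAA, the NFAT core GGAAA and the kB consensus of NF-kB. The GAS letters were in 5 of these 10 promoters, beside 8.3% of all 32851 promoters. The ISRE core was in 2, beside 8.56%, the kB consensus in 1, that of Ltb, beside 8.46%, and the NFAT core in 8, beside 61.3%. The 2 windows of Tnfsf13b overlap, and the same NFAT cores count in both. A match is a description of letters and not of a bound site.

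The 6 promoters shown are those of Tnf and Lta, neighbours that both rose with the stimulus, of Tnfsf10, which rose by the largest factor of the members at 6 h, and of 3 receptor genes that hold the GAS letters and moved in different directions at 6 h. Capitals mark matches on either strand, 5' to 3' along the gene. Tnf is at chr17:35201958-35202257 on the minus strand, Lta at chr17:35205302-35205601 on the minus strand and Tnfsf10 at chr3:27316827-27317126 on the plus strand. Tnfrsf1a is at chr6:125349473-125349772 on the plus strand, Tnfrsf1b at chr4:145246821-145247120 on the minus strand and Fas at chr19:34290409-34290708 on the plus strand.
Tnf: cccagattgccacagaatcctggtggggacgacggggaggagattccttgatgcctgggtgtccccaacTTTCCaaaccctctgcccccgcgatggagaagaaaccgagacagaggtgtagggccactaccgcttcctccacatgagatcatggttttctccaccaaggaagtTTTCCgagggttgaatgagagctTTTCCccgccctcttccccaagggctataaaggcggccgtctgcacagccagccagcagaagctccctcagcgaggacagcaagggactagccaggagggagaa
Lta: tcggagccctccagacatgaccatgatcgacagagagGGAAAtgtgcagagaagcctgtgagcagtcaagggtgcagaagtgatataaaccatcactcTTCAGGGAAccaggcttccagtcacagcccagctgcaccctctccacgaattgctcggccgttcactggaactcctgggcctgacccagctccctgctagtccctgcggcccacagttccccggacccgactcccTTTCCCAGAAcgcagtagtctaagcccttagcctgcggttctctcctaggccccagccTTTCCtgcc
Tnfsf10: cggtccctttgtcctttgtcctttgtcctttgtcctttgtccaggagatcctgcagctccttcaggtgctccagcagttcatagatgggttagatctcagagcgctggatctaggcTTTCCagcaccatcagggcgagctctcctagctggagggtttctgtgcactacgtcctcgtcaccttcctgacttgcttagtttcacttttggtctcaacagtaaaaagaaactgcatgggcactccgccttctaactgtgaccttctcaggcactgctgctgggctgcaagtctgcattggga
Tnfrsf1a: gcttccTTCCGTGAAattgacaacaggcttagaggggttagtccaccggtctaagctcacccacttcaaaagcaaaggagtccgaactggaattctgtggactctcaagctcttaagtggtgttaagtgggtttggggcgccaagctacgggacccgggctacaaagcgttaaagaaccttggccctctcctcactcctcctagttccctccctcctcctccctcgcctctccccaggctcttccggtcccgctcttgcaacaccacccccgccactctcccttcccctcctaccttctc
Tnfrsf1b: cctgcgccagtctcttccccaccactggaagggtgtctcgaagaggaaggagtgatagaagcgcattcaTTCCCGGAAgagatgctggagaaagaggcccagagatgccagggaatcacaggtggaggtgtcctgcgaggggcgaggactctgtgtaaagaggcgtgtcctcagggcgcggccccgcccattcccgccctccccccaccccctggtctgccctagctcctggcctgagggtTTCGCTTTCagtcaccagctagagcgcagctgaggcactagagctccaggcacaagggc
Fas: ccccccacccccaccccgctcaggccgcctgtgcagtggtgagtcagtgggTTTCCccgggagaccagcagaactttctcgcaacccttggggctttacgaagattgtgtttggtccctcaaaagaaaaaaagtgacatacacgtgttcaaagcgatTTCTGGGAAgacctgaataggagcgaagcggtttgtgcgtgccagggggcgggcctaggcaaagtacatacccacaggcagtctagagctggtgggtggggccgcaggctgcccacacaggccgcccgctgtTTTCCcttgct
In the Tnf window the capitals are 3 NFAT cores, which begin at -181, -77 and -54 from the start site, and the window holds none of the letters of the other motifs. The Lta window holds GAS letters at -152 and -16, the latter overlapping an NFAT core at -17, and 2 further NFAT cores at -213 and 41. Tnfsf10 holds 1 NFAT core at -134. GAS letters begin at -244 in Tnfrsf1a, at -181 in Tnfrsf1b and at -93 in Fas, and Tnfrsf1b also holds an ISRE core at -9. Fas holds NFAT cores at -199 and 39.

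Stimulation with IFN-γ plus CD40L was compared with no stimulus over 4 libraries each at 6 h and at 24 h, to ask which members respond and when. At 6 h limma called 7 of the 10 members, 6 higher and 1 lower, beside 39.7% of all genes (5069 of 12782). The 24 h comparison called 5 of the 10, all higher, beside 33.3% of all genes. The members had a median log2 change of 1.64 at 6 h and 1.28 at 24 h, beside -0.12 and 0.01 over all genes. The difference between the 2 responses passed the test for 5 of the 10 members, beside 31.5% of all genes. The 24 h and 6 h comparisons share no libraries.

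How these changes are scaled matters for members with small changes. The deposited values are scaled by library factors: the ratio of a library's reads to its scaled size was 0.756 to 0.775 without stimulus and 1.24 to 1.32 with it at 6 h, and 0.776 to 0.788 and 0.97 to 0.997 at 24 h. Scaling each library to its own total instead moved the median of all genes to -0.86 at 6 h and -0.33 at 24 h. The share of called genes that were higher then went from 48.1% to 21.9% at 6 h and from 43.9% to 30.4% at 24 h. A shift of whole libraries leaves a member's distance from the median of all genes as it is, and quantile normalization does not. Under quantile normalization every member kept the sign of that distance in both comparisons, except that Tnfrsf1b at 24 h was at -0.34, against 0.31 on the deposited scale.

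**Figure D1:**
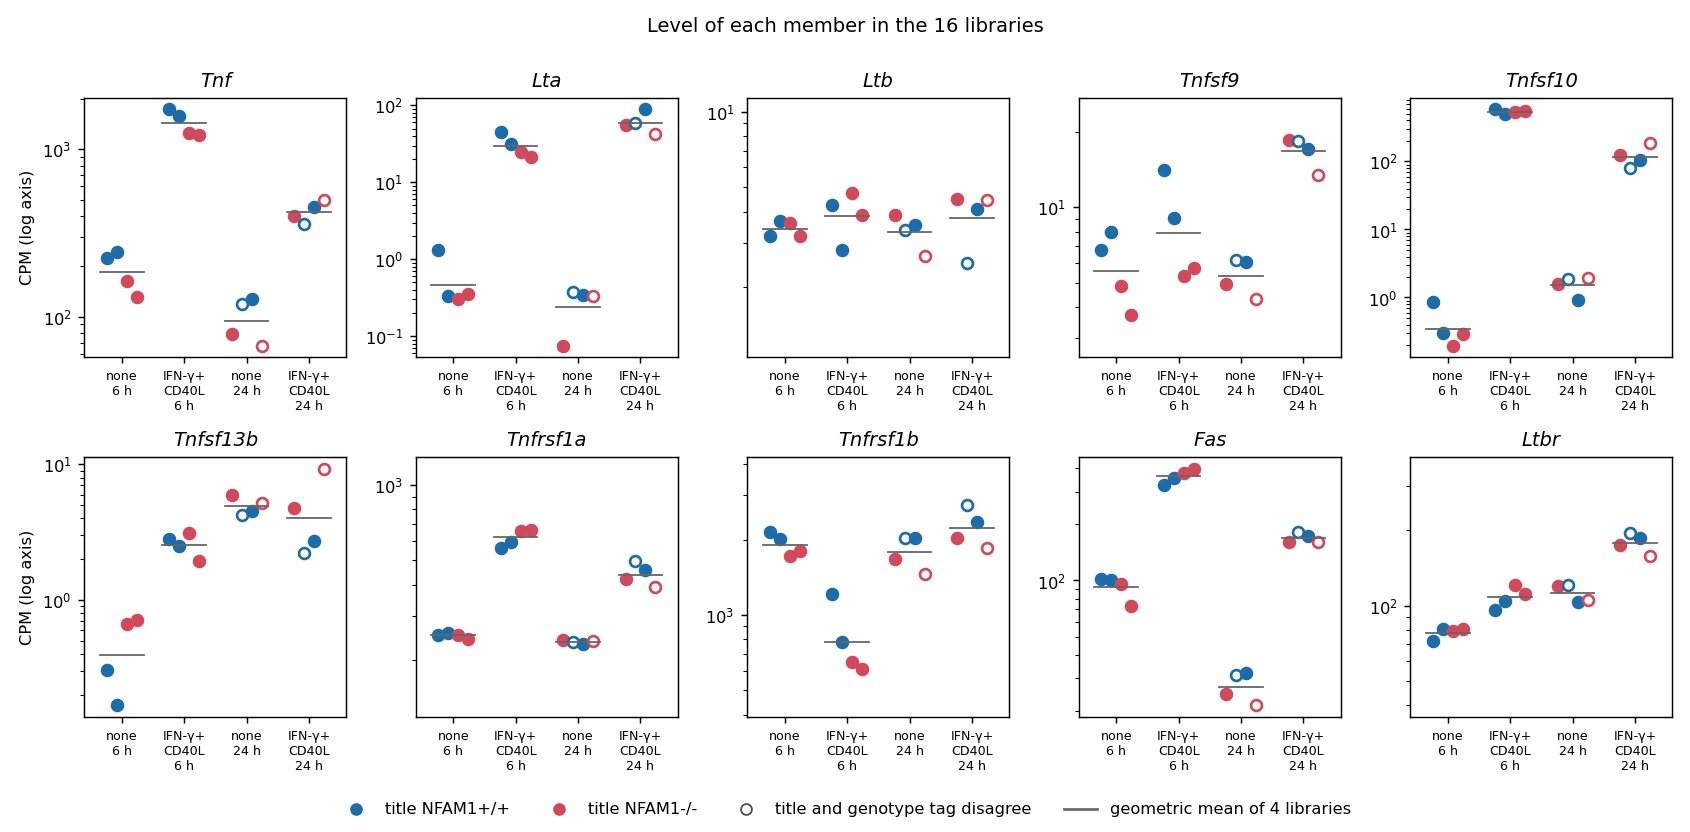
Each panel shows 1 member, with CPM on a log axis and the 4 combinations of stimulus and time along the x axis. Points are libraries, colored by the genotype in the title, open where the genotype tag disagrees, and lines are geometric means of 4 libraries. Tnf, Lta, Tnfsf10, Tnfrsf1a, Fas and Ltbr separate stimulated from unstimulated libraries at both times, and Ltb overlaps throughout.

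The levels by library show the same contrasts without a model. Stimulated and unstimulated libraries did not overlap for 8 of the 10 members at 6 h, 7 with all stimulated libraries higher and 1 with all lower, and for 7 of the 10 at 24 h. Over all genes, 71.9% did not overlap at 6 h and 68.9% at 24 h.

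Tnf encodes TNF, the founding ligand, which binds both TNF receptors. At 6 h it stood at 224, 244, 164 and 132 CPM in unstimulated libraries 1 to 4, and at 1731, 1575, 1248 and 1223 CPM in stimulated libraries 26, 10, 11 and 12. Later, at 24 h, it stood at 78.7, 118, 128 and 67.1 CPM in unstimulated libraries 43 to 46 and at 397, 357, 452 and 496 CPM in stimulated libraries 55 to 58. Every stimulated library was above every unstimulated library of either time, and the 6 h stimulated libraries were the highest of the 16. Tnf rose 7.7-fold at 6 h (log2 2.94, SE 0.096, adjusted p 1.85e-12) and 4.47-fold at 24 h (log2 2.16, adjusted p 7.36e-11), in 4 of 4 libraries each time. The 24 h response was smaller by -0.78 (SE 0.135, adjusted p 0.000156), under the fold change asked for. This difference was -0.12 under quantile normalization (adjusted p 0.422) and -0.39 with libraries scaled to their own totals (adjusted p 0.0164). Its promoter, printed above, carried NFAT cores only.

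Lta encodes lymphotoxin alpha, which as a homotrimer also binds the TNF receptors. In the 6 h libraries it stood at 1.31 CPM in library 1, 0.329 CPM in library 2, 0.3 CPM in library 3 and 0.354 CPM in library 4, and with the stimulus at 45.5, 31.4, 24.7 and 21.4 CPM in libraries 26, 10, 11 and 12. In the 24 h libraries it stood at 0.0753, 0.371, 0.339 and 0.328 CPM in unstimulated libraries 43 to 46, the first of these from 6 reads, and at 56.1, 58.3, 88.5 and 42.8 CPM in stimulated libraries 55 to 58. Unstimulated libraries were near the lower end of what was counted, and all 8 stimulated libraries were above all 8 unstimulated ones. Lta rose 63.8-fold at 6 h (log2 6.00, SE 0.435, adjusted p 1.37e-08) and 251-fold at 24 h (log2 7.97, SE 0.435, adjusted p 7.31e-10), in 4 of 4 libraries each time. The log2 response at 24 h exceeded that at 6 h by 1.98 (SE 0.615, adjusted p 0.0113). With voom weights this difference missed the threshold (adjusted p 0.0906, with a range over the other settings from 0.000732 to 0.0906). Tnf and Lta, neighbours on chromosome 17, thus both rose at both times. Ltb, on the other side of Tnf, was not called at either time.

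Ltb encodes lymphotoxin beta, which joins lymphotoxin alpha in a membrane trimer that binds the receptor made from Ltbr. It lies beside Tnf and stayed between 2.5 and 4.76 CPM in all 16 libraries, with stimulated and unstimulated libraries overlapping at both times. The log2 differences were 0.18 (SE 0.197, adjusted p 0.421) at 6 h and 0.19 (SE 0.197, adjusted p 0.404) at 24 h, and Ltb was not called. With libraries scaled to their own totals the values were -0.55 and -0.15, and under quantile normalization 0.39 and 0.49 (adjusted p 0.0933 and 0.0447). Single libraries moved them as well, from 0.03 without library 26 to 0.33 without library 10 at 6 h, and from 0.01 without library 57 to 0.36 without library 56 at 24 h. Its promoter held a GAS match and the kB consensus, the latter overlapping an NFAT core.

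Tnfsf9 encodes 4-1BB ligand, a costimulatory ligand for T cells. After 6 h it stood at 6.74, 7.93, 4.87 and 3.71 CPM in unstimulated libraries 1 to 4 and at 14.1, 9.09, 5.32 and 5.73 CPM in stimulated libraries 26, 10, 11 and 12. By 24 h it stood at 4.95, 6.14, 6.04 and 4.29 CPM in unstimulated libraries 43 to 46 and at 18.6, 18.4, 17.1 and 13.4 CPM in stimulated libraries 55 to 58. Stimulated and unstimulated libraries overlapped at 6 h and separated at 24 h. At 6 h the log2 difference was 0.50 (SE 0.153, adjusted p 0.00811) and was not called, and it was -0.23 with libraries scaled to their own totals and 0.76 under quantile normalization. At 24 h Tnfsf9 rose 3.16-fold (log2 1.66, SE 0.153, adjusted p 2.28e-07), in 4 of 4 libraries. The responses differed by 1.16 (SE 0.216, adjusted p 0.000316), a value that came to 1, just under the fold change asked for, without library 10 and under median centring. Its overlap with Gm11110 leaves the source of some reads undecided.

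Tnfsf10 encodes TRAIL, a ligand of death receptors. At 6 h it stood at 0.846, 0.297, 0.196 and 0.293 CPM in unstimulated libraries 1 to 4 and at 581, 499, 529 and 543 CPM in stimulated libraries 26, 10, 11 and 12. After 24 h it stood at 1.56, 1.88, 0.92 and 1.94 CPM in unstimulated libraries 43 to 46 and at 125, 79.3, 105 and 186 CPM in stimulated libraries 55 to 58. The 6 h stimulated libraries were all above the 24 h stimulated ones, and unstimulated libraries were low, with 18 to 95 reads at 6 h. Tnfsf10 rose 1550-fold at 6 h (log2 10.60, SE 0.292, adjusted p 3.04e-13), the largest rise among the members, and 78-fold at 24 h (log2 6.29, SE 0.292, adjusted p 1.23e-10), in 4 of 4 libraries each time. The response at 24 h was the smaller one, by -4.31 (SE 0.413, adjusted p 6.53e-07). The ISRE, GAS and kB letters were not in its 300-base window.

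Tnfsf13b encodes BAFF, a survival factor of B cells that myeloid cells make. In the 6 h libraries it stood at 0.306 and 0.168 CPM in NFAM1+/+ libraries 1 and 2 and at 0.666 and 0.712 CPM in libraries 3 and 4, and with the stimulus at 2.83, 2.52, 3.15 and 1.94 CPM in libraries 26, 10, 11 and 12. Later, at 24 h, it stood at 5.95, 4.22, 4.52 and 5.21 CPM in unstimulated libraries 43 to 46 and at 4.81, 2.21, 2.73 and 9.24 CPM in stimulated libraries 55 to 58. The stimulated libraries were all higher at 6 h, and at 24 h they lay both above and below the unstimulated ones. Tnfsf13b rose 6.49-fold at 6 h (log2 2.70, SE 0.256, adjusted p 2.51e-07), in 4 of 4 libraries, and at 24 h its log2 difference was -0.28 (SE 0.256, adjusted p 0.327). That value was -0.62 with libraries scaled to their own totals (adjusted p 0.0409), -0.03 under quantile normalization, -0.05 without library 55, -0.52 without library 58 and -0.51 without the 4 libraries in doubt. The responses differed by -2.98 (SE 0.362, adjusted p 6.21e-06). Without stimulus, Tnfsf13b rose between 6 h and 24 h, as described below.

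Tnfrsf1a encodes TNF receptor 1, the death-domain receptor of TNF found on most cells. After 6 h it stood at 253, 257, 251 and 244 CPM in unstimulated libraries 1 to 4 and at 562, 595, 658 and 662 CPM in stimulated libraries 26, 10, 11 and 12. In the 24 h libraries it stood at 240.5, 236, 231 and 238 CPM in unstimulated libraries 43 to 46 and at 421, 496, 456 and 391 CPM in stimulated libraries 55 to 58. Unstimulated libraries lay close together and below all stimulated ones at both times. Tnfrsf1a rose 2.46-fold at 6 h (log2 1.30, SE 0.045, adjusted p 3.42e-12), in 4 of 4 libraries. This rise was 0.36 under quantile normalization and 0.57 with libraries scaled to their own totals, both under the fold change asked for. At 24 h the log2 difference was 0.89 (SE 0.045, adjusted p 2.72e-10), with 4 of 4 libraries higher and a fold of 1.86, and 0.47 under quantile normalization and 0.56 with libraries scaled to their own totals. The responses differed by -0.40 (SE 0.063, adjusted p 6.47e-05), again under that fold change, and by 0.10 under quantile normalization.

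Tnfrsf1b encodes TNF receptor 2, which recruits TRAF2 and has no death domain. At 6 h it stood at 2147, 2003, 1723 and 1804 CPM in unstimulated libraries 1 to 4 and at 1210, 778, 652 and 608 CPM in stimulated libraries 26, 10, 11 and 12. By 24 h it stood at 1673, 2024, 2021 and 1460 CPM in unstimulated libraries 43 to 46 and at 2039, 2745, 2351 and 1846 CPM in stimulated libraries 55 to 58. All stimulated libraries were below all unstimulated ones at 6 h, and at 24 h the sets overlapped. Tnfrsf1b fell 2.45-fold at 6 h (log2 -1.29, SE 0.11, adjusted p 8.21e-08), in 4 of 4 libraries, and was the only member called lower by limma in the 6 h comparison. This fall was -2.51 under quantile normalization and -2.02 with libraries scaled to their own totals. At 24 h its log2 difference was 0.32 (SE 0.11, adjusted p 0.0173), not called, -0.36 under quantile normalization and -0.01 with libraries scaled to their own totals. The responses differed by 1.61 (SE 0.156, adjusted p 7.26e-07). Tnfrsf1a and Tnfrsf1b thus moved in opposite directions at 6 h, and the promoters of both, printed above, held GAS letters.

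Fas encodes the death receptor FAS. In the 6 h libraries it stood at 102, 100.4, 95.5 and 72.9 CPM in unstimulated libraries 1 to 4 and at 324, 353, 378 and 396 CPM in stimulated libraries 26, 10, 11 and 12. After 24 h it stood at 24.7, 30.9, 31.7 and 21.4 CPM in unstimulated libraries 43 to 46 and at 160.2, 182, 174 and 160.1 CPM in stimulated libraries 55 to 58. Stimulated libraries were higher at both times, and both sets were lower at 24 h than at 6 h. Fas rose 3.93-fold at 6 h (log2 1.98, SE 0.074, adjusted p 8.39e-12) and 6.3-fold at 24 h (log2 2.65, SE 0.074, adjusted p 5.59e-13), in 4 of 4 libraries each time. The 6 h rise was 1.29 under quantile normalization and 1.25 with libraries scaled to their own totals. The responses differed by 0.68 (SE 0.104, adjusted p 5.61e-05), under the fold change asked for. That difference was 1.32 under quantile normalization and 1.08 with libraries scaled to their own totals, called in both. In each, 6 members in all passed the test of the difference, beside 3816 and 4805 of all 12782 genes. Its ligand gene, Fasl, was not in the table.

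Ltbr encodes the lymphotoxin beta receptor, which signals through TRAF3 to the noncanonical NF-kB pathway. It ranged from 72 to 81 CPM in unstimulated and from 96.4 to 121 CPM in stimulated libraries at 6 h, and from 104 to 121 CPM and from 158 to 195 CPM at 24 h. All stimulated libraries were above all unstimulated ones at each time. The log2 differences were 0.47 (SE 0.066, adjusted p 1.71e-05) at 6 h and 0.67 (SE 0.066, adjusted p 5.00e-07) at 24 h, both under the fold change asked for. The 6 h value was -0.26 with libraries scaled to their own totals and 0.09 under quantile normalization, and the 24 h value 0.33 and 0.39. Ltb, Tnfsf9 and Ltbr, the 3 members not called at 6 h, turned sign there with libraries scaled to their own totals. That scaling shifts all genes alike, so the members with the smallest rises turn.

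**Figure D2:**
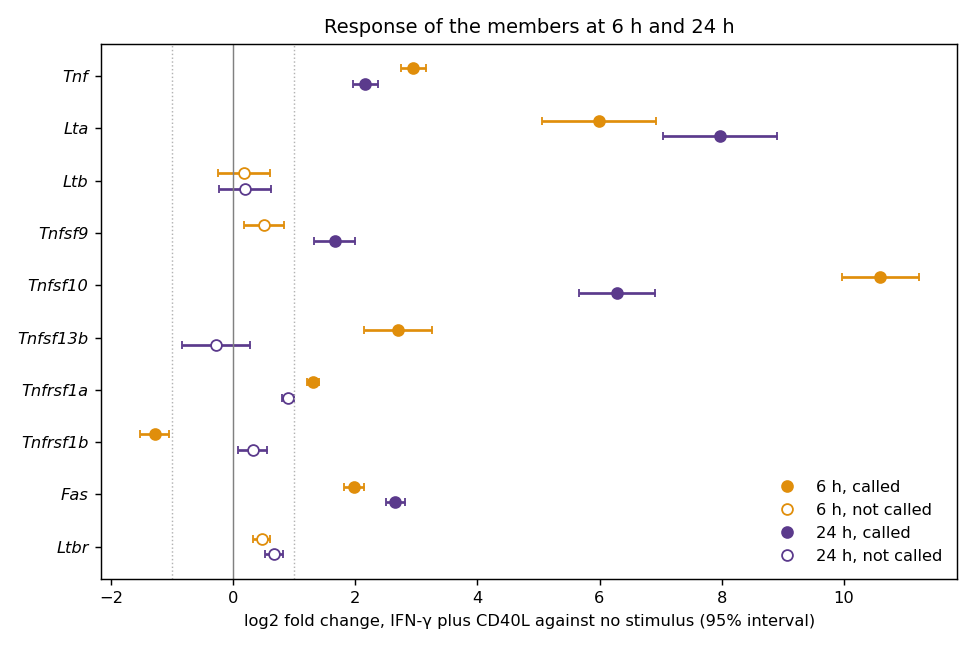
Log2 fold change of each member with IFN-γ plus CD40L against no stimulus, at 6 h in orange and 24 h in purple, with 95% intervals from limma over 4 against 4 libraries. Filled points were called, and dotted lines mark a fold change of 2. Tnfsf10 is at 10.60 at 6 h and 6.29 at 24 h, and Tnfrsf1b lies on opposite sides of 0 at the 2 times, though its 24 h value turns negative under quantile normalization.

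The plot of fold changes sets both responses side by side. Tnfsf10 and Tnfsf13b had their larger change at 6 h, and Lta, Tnfsf9 and Tnfrsf1b had the higher value at 24 h, by the test of the difference itself. For Tnf, Tnfrsf1a and Fas the difference on the deposited scale had an adjusted p under 0.05 without reaching the fold change asked for, and for Ltb and Ltbr it missed the adjusted threshold as well. Under quantile normalization Tnf and Tnfrsf1a missed it too, Ltbr had an adjusted p of 0.0149 at 0.30, and Fas was called. With libraries scaled to their own totals Tnfrsf1a was at -0.01 (adjusted p 0.929) and Ltbr at 0.60 (adjusted p 6.89e-05), under the fold change asked for, and under median centring Ltbr was at 0.04.

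Time in culture was compared within each condition, 24 h against 6 h, over 4 libraries each. Any processing batch that goes with time cannot be told apart from it. Without stimulus limma called 3 of the 10 members, 2 higher and 1 lower, beside 21% of all genes. With the stimulus it called 6 of the 10, 3 higher and 3 lower, beside 33.7% of all genes. Scaling libraries to their own totals moved the median of all genes in stimulated cells from 0.04 to 0.41 and the share of called genes that were higher from 49% to 69.3%, while median centring took that share to 37.8%. For the difference between the responses, the same scaling moved the median from 0.04 to 0.44 and the share from 42.1% to 67.4%.

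Without stimulus, Tnfsf13b rose 12.5-fold between 6 h and 24 h (log2 3.64, SE 0.256, adjusted p 3.13e-08) and Tnfsf10 rose 4.37-fold (log2 2.13, SE 0.292, adjusted p 2.28e-05), each in 4 of 4 libraries. Fas fell 3.43-fold (log2 -1.78, SE 0.074, adjusted p 1.88e-10), in 4 of 4 libraries. Tnf had a log2 difference of -0.97 (SE 0.096, adjusted p 9.02e-07), a fold of 1.96 with 4 of 4 libraries lower. The neutrophil markers given above had their highest sums in these same 24 h unstimulated libraries, with 10 of 10 called higher than at 6 h, and of the dendritic cell markers 7 of 10 were called higher and 1 lower. The monocytes had been enriched from bone marrow before culture by the study's methods, and the part of these markers in the rise of Tnfsf13b was not tested. Leaving out library 1, 4, 43 or 45 took Tnf past the threshold, at -1.01, -1.05, -1.03 and -1, as did quantile normalization, at -1.06. Lta, at -0.97 (adjusted p 0.0654), passed it without library 2 or 46, at -1.47 and -1.50, under quantile normalization, at -1.11, and without the 4 libraries in doubt, at -1.53. Without library 1 or 43, the 2 that stand apart in Lta, it was at -0.47 and -0.44, and adjusted p ranged from 0.00394 to 0.363 over all settings.

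With the stimulus, Tnf fell 3.38-fold from 6 h to 24 h (log2 -1.76, SE 0.096, adjusted p 9.30e-10), Tnfsf10 fell 4.55-fold (log2 -2.19, adjusted p 9.88e-06) and Fas fell 2.14-fold (log2 -1.10, adjusted p 7.62e-09), each in 4 of 4 libraries. The fall of Fas was -0.61 under quantile normalization and -0.73 with libraries scaled to their own totals, both under the fold change asked for. Tnfrsf1b rose 2.84-fold (log2 1.51, SE 0.11, adjusted p 1.92e-08), in 4 of 4 libraries. Tnfsf9 rose 2.12-fold (log2 1.08, SE 0.153, adjusted p 1.76e-05), with library 26 at 6 h above library 58 at 24 h, and came to 0.92 without library 10, 0.96 without library 55, 0.87 under quantile normalization and 0.91 under median centring. Lta was called at a log2 difference of 1.01 (SE 0.435, adjusted p 0.0483) with overlapping libraries. That call was lost without any 1 of libraries 3, 4, 26, 10, 11, 12, 44, 45, 55, 56, 57 and 58, at values from 0.86 to 1.16 and adjusted p from 0.0517 to 0.139.

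In stimulated cells 3 further members had an adjusted p under 0.05 without reaching the fold change asked for. Tnfsf13b was at 0.66 (SE 0.256, adjusted p 0.0311), with overlapping libraries. Tnfrsf1a was at -0.49 (SE 0.045, adjusted p 1.81e-07), with 4 of 4 libraries lower, and at 0.02 under quantile normalization and -0.12 with libraries scaled to their own totals. Ltbr was at 0.72 (SE 0.066, adjusted p 2.04e-07), with 4 of 4 libraries higher. With libraries scaled to their own totals Tnfsf13b was at 1.03 (adjusted p 0.00209) and Ltbr at 1.10 (adjusted p 2.53e-09), both called. In that setting 7 members in all were called, beside 4890 of all 12782 genes. Tnfsf13b missed the adjusted threshold under median centring (adjusted p 0.104) and without library 58 (0.42, adjusted p 0.164), and also without library 10, 12 or 57, without the 4 libraries in doubt, by tag and with treat.

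Genotype was compared within each condition and time, 2 libraries labelled NFAM1-/- against 2 NFAM1+/+ libraries, to ask whether the members depend on NFAM1. No replicate label is shared between groups, so libraries that may come from 1 animal could not be paired. Limma called 0 of the 10 members in unstimulated cells at 6 h, beside 0.0861% of all genes (11 of 12782), and at unadjusted p under 0.05 it gave 5 members and 1289 genes. In stimulated cells at 6 h it called 0 of 10, beside 0% of all genes, with 5 members and 1862 genes at unadjusted p under 0.05. At 24 h by title it called 0 of 10 without stimulus, beside 0.289% of all genes (37), and 0 of 10 with it, beside 0.579% (74), with 3 members at unadjusted p under 0.05 in each and 1397 and 1988 genes. By tag these were 1 member and 0 members, beside 204 genes higher and 123 lower without stimulus and 249 and 212 with it. Leaving out the 4 libraries in doubt leaves 1 library in each 24 h group. The difference between genotypes in the 6 h response was called for 0 of 10 members, beside 0% of all genes, with 3 members and 1090 genes at unadjusted p under 0.05. A p that misses the threshold does not show that the genotypes had equal levels.

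The count of all genes called moved with single libraries. At 6 h without stimulus it was 40 without library 1, 31 without library 2, 1 without library 4, 6 without library 11 and 5 without library 12, 56 or 57. At 6 h with the stimulus it was 126 without library 10, 11 without library 12, 3 without library 11 and 1 without library 26. At 24 h without stimulus it was 64 without library 43, 7 without library 44 and 15 without library 46. At 24 h with the stimulus it was 182 without library 55, 126 without library 57, 22 without library 56, 1 without library 58, and 46 to 49 without library 1, 3, 4, 44 or 45. For the difference in response it was 55 without library 10, 12 without library 1, 9 without library 2 and 2 without library 3, 11 or 12.

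The libraries of the 2 genotypes, by title, did not overlap for 7 of the 10 members in unstimulated cells at 6 h, beside 42.2% of all genes, with 6 of the 7 lower in libraries labelled NFAM1-/-. In stimulated cells at 6 h they did not overlap for 7 members, 4 of them lower, beside 42.4% of all genes. At 24 h they did not overlap for 7 members without stimulus, beside 45.4%, and for 8 with it, beside 48.2%. By tag, Ltbr alone did not overlap at 24 h without stimulus, and Tnf and Tnfsf9 alone with it. The share of all genes was not counted by tag, so whether these members are more or fewer than that share cannot be told.

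Marker sums also differed between the genotypes by title. Without stimulus at 24 h, the neutrophil sum was 1178 and 955 CPM in libraries 43 and 46 against 823 and 668 CPM in libraries 44 and 45. In the same libraries the dendritic cell sum was 392 and 459 against 314 and 298 CPM, the B cell sum 194 and 199 against 137 and 128 CPM, and the monocyte sum 30460 and 28460 against 32550 and 32740 CPM. Of the neutrophil markers 1 of 10 was called higher there, and of the dendritic cell markers 4 of 10 were higher at unadjusted p under 0.05. The B cell sum was mostly Ighm, at 179.5 and 191.1 against 117.8 and 112.4 CPM. Of the 4 B cell markers, 1 was higher and 1 lower at unadjusted p under 0.05, with a median log2 difference of 0.03. By tag the libraries of the 2 genotypes overlapped in the sum of each of these lists.

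With the stimulus at 24 h the monocyte sum was 14590 and 14700 CPM in libraries 55 and 58 against 11510 and 12430 CPM in libraries 56 and 57, with 1 of 10 monocyte markers called lower. At 6 h the B cell sum, mostly Ighm, was higher in both libraries labelled NFAM1-/- in each condition. The B cell list's median log2 difference was -0.09 without and -0.51 with the stimulus, with 0 markers higher at unadjusted p under 0.05. The neutrophil and monocyte sums without stimulus overlapped, as did the neutrophil sums with it. With the stimulus at 6 h the monocyte sum was 14890 and 14190 CPM in libraries 11 and 12 against 13820 and 13240 CPM in libraries 26 and 10. The part of these markers in the genotype values of the members was not tested.

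Tnf had the smallest adjusted p of the members in unstimulated cells at 6 h. Both libraries labelled NFAM1-/-, at 164 and 132 CPM, were below both NFAM1+/+ libraries, at 224 and 244 CPM (log2 -0.67, SE 0.135, adjusted p 0.0711). In stimulated cells at 6 h the libraries labelled NFAM1-/-, at 1248 and 1223 CPM, were again below the NFAM1+/+ ones, at 1731 and 1575 CPM (log2 -0.42, SE 0.135, adjusted p 0.217). At 24 h without stimulus the 2 libraries titled NFAM1-/- had 78.7 and 67.1 CPM of Tnf and the 2 titled NFAM1+/+ had 118 and 128 CPM. That gave a log2 difference of -0.76 (SE 0.135, adjusted p 0.0179), with 2 of 2 libraries lower and a fold of 1.69, under the fold change asked for, in the libraries whose marker sums differ as given above. The same difference was 0.06 by the genotype tag and -0.70 without the 4 libraries in doubt, with adjusted p from 0.00451 to 1 over all settings. At 24 h with the stimulus the Tnf libraries overlapped by title (log2 0.14), while by tag both NFAM1-/- libraries were lower (log2 -0.33), and without the 4 libraries in doubt the value was -0.19.

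Other members showed gaps of a similar kind at 6 h. Tnfsf9 had a log2 difference of -0.78 (SE 0.216, adjusted p 0.201) without stimulus and of -1.04 (SE 0.216, adjusted p 0.111) with it, 2 of 2 libraries lower each time. Without library 10 the stimulated difference was -1.35 and was called, with adjusted p 0.00545 within a range of 0.00545 to 1 over all settings. Tnfsf13b was higher in 2 of 2 libraries labelled NFAM1-/- without stimulus, from 10 to 81 reads a library (log2 1.60, SE 0.362, adjusted p 0.101). Its difference between the genotypes' 6 h responses was -1.72 (SE 0.512, adjusted p 0.405). Tnfsf10 without stimulus was at -1.07 (SE 0.413, adjusted p 0.404), 2 of 2 libraries lower, and at -0.31 without library 1 and -1.82 without library 2. Lta in stimulated cells was at -0.72 (SE 0.615, adjusted p 0.642), 2 of 2 libraries lower, and at -0.45 without library 26. Tnfrsf1b in stimulated cells was at 652 and 608 CPM in libraries 11 and 12 and at 1210 and 778 CPM in libraries 26 and 10 (log2 -0.62, SE 0.156, adjusted p 0.14). It was at -0.30 without library 26 (adjusted p 0.617) and at -0.94 without library 10 (adjusted p 0.00121), with adjusted p from 0.00121 to 1 over all settings. Tnfrsf1a in stimulated cells had a log2 difference of 0.19 (SE 0.063, adjusted p 0.228) and Ltbr one of 0.21 (SE 0.094, adjusted p 0.315), each with 2 of 2 libraries higher. For Tnfrsf1a the difference in response was 0.23 (SE 0.089, adjusted p 0.514). Fas was at -0.28 without stimulus (SE 0.104, adjusted p 0.371), with 2 of 2 libraries lower, and its difference in response was 0.47 (SE 0.147, adjusted p 0.423). Without library 4 these were -0.09 and 0.28, and without library 3 the former was -0.47.

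At 24 h the values of most members depended on which label was used. Fas without stimulus was at -0.45 by title (SE 0.104, adjusted p 0.0688), with 2 of 2 libraries lower, at 0.08 by tag and at -0.36 without the 4 libraries in doubt. Tnfsf13b with the stimulus was at 1.44 by title (SE 0.362, adjusted p 0.0593), with 2 of 2 libraries higher, at -0.63 by tag and at 0.81 without those libraries. Without library 55 it was at 1.91, and with voom weights at 1.48, and in both it was called, with adjusted p from 0.02 to 1 over all settings. Tnfrsf1a with the stimulus was at -0.23 by title (SE 0.063, adjusted p 0.0777), with 2 of 2 libraries lower, at 0.11 by tag and at -0.12 without those libraries. Tnfrsf1b was at -0.37 without (SE 0.156, adjusted p 0.392) and -0.39 with the stimulus by title (SE 0.156, adjusted p 0.234), with 2 of 2 libraries lower each time, at 0.10 and 0.18 by tag and at -0.27 and -0.21 without those libraries. Lta without stimulus, at low counts, was at -1.17 by title (adjusted p 0.531), -1 by tag and -2.17 without those libraries. Library 43, at 0.0753 CPM from 6 reads, counts as NFAM1-/- in each of these values. Libraries 44, 45 and 46 were at 0.371, 0.339 and 0.328 CPM. With the stimulus Lta was at -0.55, -0.11 and -0.66. Tnfsf10 was at 0.40, 0.36 and 0.76 without and at 0.74, -0.49 and 0.25 with the stimulus, in the same order. Tnfsf13b without stimulus was at 0.35, 0.05 and 0.40, and Fas with the stimulus at -0.15, 0.03 and -0.12. For Tnfsf9 the values were, in that order, -0.40, 0.12 and -0.29 without and -0.17, 0.28 and 0.12 with the stimulus, and for Ltb -0.11, 0.23 and 0.13 and then 0.48, -0.35 and 0.14. Tnfrsf1a without stimulus was at 0.03, 0.02 and 0.06, and Ltbr at 0, 0.20 and 0.20 without and -0.20, 0.11 and -0.09 with the stimulus. By tag, no member had an adjusted p under 0.05 at 24 h. Without the 4 libraries each 24 h group held a single library, so a p-value there decides nothing. Counts of all genes called went from 37 by title to 2 by tag in unstimulated cells, and from 74 to 3 in stimulated cells.

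**Figure D3:**
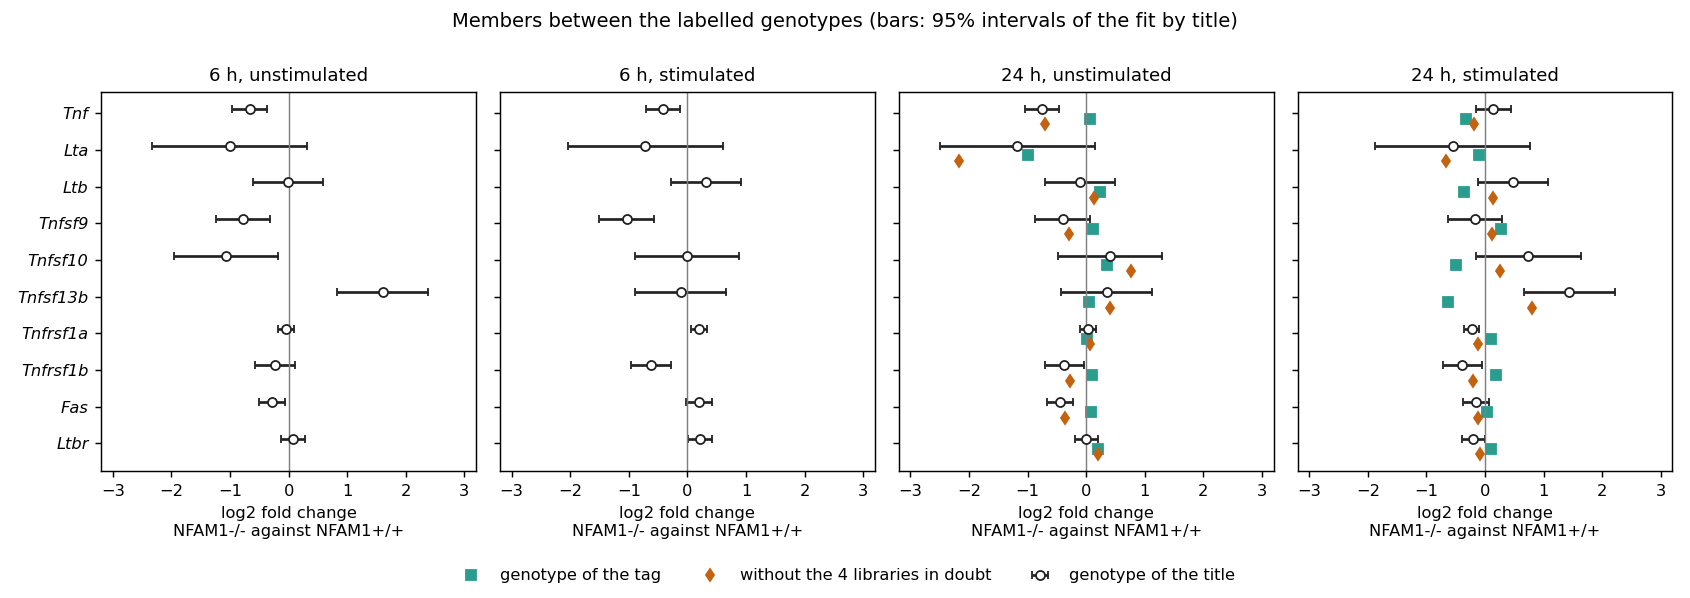
Log2 difference of each member, libraries labelled NFAM1-/- minus NFAM1+/+, in 4 panels by time and stimulus. Open circles with 95% intervals use the genotype in the title (2 against 2 libraries), squares use the genotype tag and diamonds leave out the 4 libraries whose labels disagree. Tnf is below 0 at 6 h in both panels, and at 24 h without stimulus it is at -0.76 by title and 0.06 by tag.

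The plot by genotype shows the 24 h squares and circles on opposite sides of 0 for several members, so that genotype differences at 24 h rest on which label is right. Nfam1 itself had log2 differences of -0.44 (SE 0.08, adjusted p 0.0514) and -0.01 (SE 0.08, adjusted p 0.979) at 6 h without and with the stimulus. At 24 h it was at -0.20 without and -0.30 with the stimulus by title, at 0.04 and -0.02 by tag, and at -0.17 and -0.32 without the 4 libraries in doubt. Without library 46 the former title value was -0.12.

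Genes with the most similar levels over the 16 libraries were listed for each member by Pearson r, as a description, since the points share their stimulus and time. For Tnf they were Bcl2a1b (0.991), Cxcl16 (0.99) and Spred1 (0.99). For Lta they were Cd38 (0.987), Ncoa5 (0.984) and Pcp4 (0.982), and for Tnfsf9 Pirb (0.942), E030018B13Rik (0.936) and Ets2 (0.935). Those for Tnfsf10 were Ifit2 (0.996), Usp18 (0.996) and Fgl2 (0.995), of which Ifit2 and Usp18 are interferon-induced genes. Tnfsf13b was followed by Akr1b10 (0.949), Gm20257 (0.941) and Pld1 (0.938), and Ltb, with lower values, by Gm15559 (0.667), Gm10093 (0.665) and Gm26880 (0.641).

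Among the receptors, Tnfrsf1a was followed by Rab3ip (0.994), Ugcg (0.993) and Crem (0.993), and Tnfrsf1b by Sde2 (0.973), Zfp408 (0.967) and Homez (0.963). The genes nearest to Fas included Gtf2f1 (0.996) and Arhgef3 (0.994), and Ltbr was followed by AI413582 (0.979), Sirt2 (0.973) and Snx15 (0.97). No member was among the nearest genes of another member.

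The rest of the pathway was described through 5 lists. Over all genes limma called 19.1% higher and 20.6% lower at 6 h, and 14.6% higher and 18.7% lower at 24 h, and the lists' counts stand beside these shares. Of 12 other TNF superfamily ligand genes, 7 were in the table, and Tnfsf11, Tnfsf18, Cd40lg, Fasl and Eda were not. At 6 h limma called 4 higher and 2 lower of the 7, with a median log2 change of 2.34, beside -0.12 over all genes. Under quantile normalization they were 3 higher and 2 lower, with a median of 0.84, and with libraries scaled to their own totals 3 higher and 2 lower, with a median of 1.61. The 24 h counts were 3 higher and 3 lower, with a median of -0.95, beside 0.01. Tnfsf8, the CD30 ligand gene, rose at 6 h (log2 5.69, SE 0.52, adjusted p 1.7e-07) and fell at 24 h (log2 -3.44, SE 0.52, adjusted p 3.58e-05), from 0 to 12 reads in each unstimulated library at 6 h and with a mean of 2.2 CPM in stimulated ones. Tnfsf15, which encodes TL1A, rose by 3.57 at 6 h, from a mean of 0.128 to 1.57 CPM, and Tnfsf4, the OX40 ligand gene, by 3.27, from 0.237 to 1.66 CPM. Tnfsf13, which encodes APRIL, fell by 2.47 (SE 0.303) and Tnfsf12, which encodes TWEAK, fell by 2.41 (SE 0.108) on the log2 scale at 6 h. RefSeq places both of these genes under the joint transcript Tnfsfm13 and the noncoding Tnfsf13os, so their reads may be divided among them.

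Of 24 other receptor genes of the superfamily, 16 were in the table, and Tnfrsf9, Tnfrsf11b, Tnfrsf17, Tnfrsf19, Tnfrsf25, Ngfr, Edar and Eda2r were not. Limma called 4 higher and 4 lower at 6 h and 4 higher and 6 lower at 24 h, with medians of -0.04 and -0.33. The 6 h counts were 3 higher and 6 lower with libraries scaled to their own totals, with a median of -0.77, and under quantile normalization 3 higher and 4 lower. Median centring took the 6 h median to 0.13. The 24 h median was 0.05 under quantile normalization and -0.66 with libraries scaled to their own totals. Cd40, the receptor of the stimulus, had means of 60 CPM without and 1460 CPM with the stimulus at 6 h (log2 4.62, SE 0.075, adjusted p 1.62e-15) and rose by 5.27 at 24 h. Tnfrsf14, which encodes HVEM, rose by 3.19 at 6 h (SE 0.097), from a mean of 8.89 to 82.3 CPM. Tnfrsf21, which encodes death receptor 6, fell by 1.70 (SE 0.114), and Tnfrsf11a, which encodes RANK, fell by 1.45 (SE 0.129) at 6 h and fell by 3.85 at 24 h. Tnfrsf22, a decoy receptor of TRAIL, fell by 1.44 (SE 0.333) at 6 h, from a mean of 1.03 to 0.392 CPM. The 6 h falls of Tnfrsf11a and Tnfrsf22 were -2.18 and -2.17 with libraries scaled to their own totals.

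Of 25 genes of the TNF receptor 1 complex and of death signalling, all 25 were in the table. At 6 h limma called 15 higher and 0 lower, with a median of 1.18 beside -0.12 over all genes. At unadjusted p under 0.05 the list had 18 higher and 4 lower, beside 35.5% higher and 43.9% lower of all genes. The 24 h counts were 8 higher and 1 lower, with a median of 0.72. Mlkl, which permeabilises the membrane in necroptosis, rose by 4.43 at 6 h (SE 0.068, adjusted p 1.12e-15), from a mean of 15.1 to 323 CPM. Cflar, whose product c-FLIP restrains caspase 8, rose by 2.67 (SE 0.073, adjusted p 2.84e-13), from 193 to 1220 CPM, and was at 1.74 under quantile normalization. With libraries scaled to their own totals the list had 6 higher and 4 lower at 6 h, with a median of 0.45, and under quantile normalization 9 higher and 0 lower, with a median of 0.69.

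Of 16 genes of the NF-kB arm downstream of TNF receptors, all 16 were in the table. Limma called 7 higher and 1 lower at 6 h, with a median of 0.92, and 10 higher and 1 lower at 24 h, with a median of 1.66. Tnfaip3, which encodes the ubiquitin-editing brake A20, rose by 2.83 at 6 h (SE 0.085, adjusted p 8.25e-13), Traf1, an adaptor, by 2.11 (SE 0.144) and Nfkbie, an inhibitor of NF-kB, by 2.03 (SE 0.07). Under quantile normalization these rises were 1.86, 1.23 and 1.22, and with libraries scaled to their own totals those of Traf1 and Nfkbie were 1.38 and 1.30. Map3k14, which encodes the noncanonical pathway kinase NIK, was called lower at -1.01 at 6 h (SE 0.077, adjusted p 2.43e-08), from a mean of 76.4 to 38 CPM. That call was lost under median centring, at -0.84, and without library 2, 4 or 12, at -1, -0.98 and -0.94, while with libraries scaled to their own totals the fall was -1.74. The list had 3 higher and 2 lower at 6 h both with libraries scaled to their own totals and under quantile normalization. Under median centring it had 10 higher and 0 lower.

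Of 17 genes that control TNF mRNA and protein, 16 were in the table, Timp3 not. Limma called 4 higher and 3 lower at 6 h, with a median of 0.37, and 1 higher and 4 lower at 24 h, with a median of -0.03. The 7 and 5 called of 16 were near the shares of all genes called, 39.7% and 33.3%. Rhbdf2, whose product iRhom2 carries the TNF-shedding protease ADAM17 to the surface, rose by 2.33 at 6 h (SE 0.046, adjusted p 9.64e-15), from a mean of 118 to 589 CPM, and by 1.54 under quantile normalization. Its relative Rhbdf1 fell by 2.51 (SE 0.367), at means of 0.775 and 0.137 CPM. Map3k8, a kinase upstream of TNF production, rose by 1.59 at 6 h (SE 0.068), and Litaf, named for a role in Tnf transcription, rose by 1.17 (SE 0.06). With libraries scaled to their own totals these rises were 0.86 and 0.44, under the fold change asked for, and that of Litaf was 0.43 under quantile normalization. Zfp36l2 fell by 2.67 (SE 0.103, adjusted p 1.22e-11) and Zfp36l1 fell by 1.19 (SE 0.087), or by 1.92 with libraries scaled to their own totals, both encoding proteins that destabilise AU-rich mRNA. Zfp36, which encodes tristetraprolin of the same family, a destabiliser of Tnf mRNA, rose by 1.05 (SE 0.093, adjusted p 1.34e-07), from a mean of 432 to 903 CPM. That call was lost under quantile normalization (0.05, adjusted p 0.633), with libraries scaled to their own totals (0.31) and without library 10 (0.92). The list had 2 higher and 3 lower at 6 h under quantile normalization, with a median of -0.13, and 1 higher and 5 lower with libraries scaled to their own totals, with a median of -0.36.

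In the genotype comparisons limma called 0 genes of any of the 5 lists, at 6 h, at 24 h by title and for the difference in response. At unadjusted p under 0.05, the 16 genes of the NF-kB arm had 5 lower and 0 higher in unstimulated cells at 6 h, beside 4.65% lower and 5.44% higher of all genes. In stimulated cells at 6 h they had 7 lower and 0 higher, beside 6.75% and 7.82%. At 24 h by title they had 7 lower and 1 higher without stimulus, beside 6.16% and 4.76%, and 2 lower and 0 higher with it, beside 7.71% and 7.84%. The difference in response had 1 lower and 0 higher, beside 4.47% and 4.06%. By tag the 24 h comparisons had 0 genes of this list at that level. Over all genes, the counts without stimulus were 609 higher and 788 lower by title, and 204 and 123 by tag. With the stimulus they were 1002 and 986 by title, and 249 and 212 by tag. The median of the NF-kB arm was -0.17 and -0.14 at 6 h, -0.20 and -0.05 at 24 h by title, 0.09 and 0 by tag, -0.20 and -0.06 without the 4 libraries in doubt, and 0.03 for the difference in response, beside -0.004 to 0.013 over all genes by title. The other 4 lists had between 0 and 3 genes in each direction at unadjusted p under 0.05, by title.

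**Figure D4:**
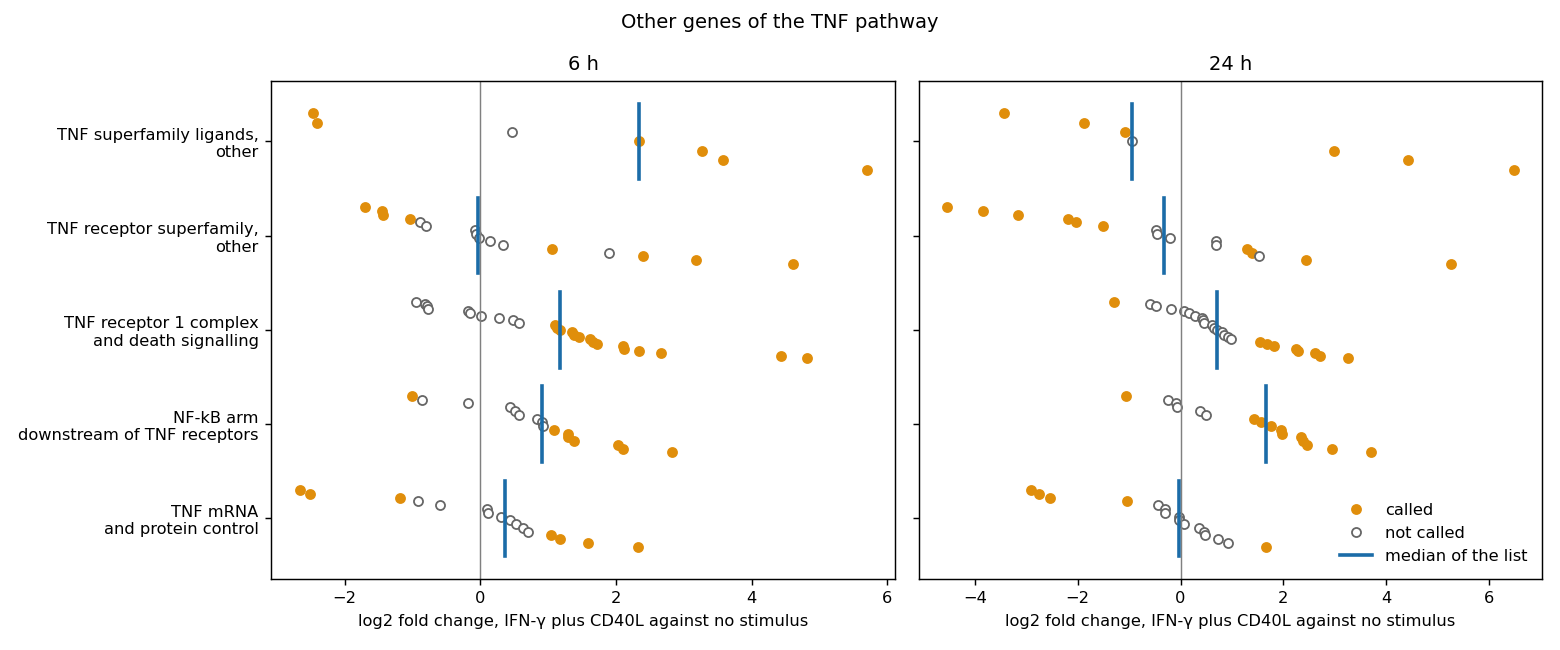
Each point is 1 gene of a list, with its log2 fold change with IFN-γ plus CD40L against no stimulus at 6 h on the left and at 24 h on the right, filled where called, and the bar is the list's median. The TNF receptor 1 complex and death list has 15 genes called higher at 6 h and 8 at 24 h, and the NF-kB list has 7 and 10. With libraries scaled to their own totals the 6 h counts of genes higher are 6 and 3.

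The plot of the lists shows receptor genes spread over both directions at each time. Among those called lower at 24 h is Tnfrsf11a, with means of 62.5 and 4.3 CPM.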

How the data were processed

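RNA of 16 mouse monocyte libraries was sequenced without strand information. Per the authors' notes, reads passed FastQC and were aligned with STAR to GRCm39 (mm39), and edgeR and limma were used, with no versions given. The deposited values are log2 CPM in the form that voom gives, and with an offset of 0.5 reads each value returned a whole read count to within 0.05 reads in 100% of cases. Of the symbols, 17 had become dates and 1 was listed more than once. A gene was kept when 2 or more libraries held it at 1 CPM or above, which left 12782. The 8 groups by title were fitted with limma 3.58.1 (R 4.3.3) with a mean-variance trend and 8 residual degrees of freedom, and p-values were adjusted by Benjamini-Hochberg over all genes tested. The scripts were tested on simulated data. Tables were prepared with Python 3.11.15, pandas 2.3.3 and numpy 2.4.6, and figures with matplotlib 3.10.9.

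All 10 members are described whatever their values. Of the other ligand and receptor genes, the 5 largest called rises and falls at 6 h were named, of each other list up to 3, with Zfp36 beside its relatives, and for each member up to 3 of the genes with the highest Pearson r. The members and lists were chosen with earlier results of these data known. Alternatives tried were other filters, quantile, median and total-read scaling, other variance models, other fold changes, fits by time, the genotype tag and leaving out libraries.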

Additional observations from a re-analysis of the deposited data

Results flagged for a closer look

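For the members and Nfam1, 44 sets of 4 libraries were tested for a library far from the others, by the gap to its nearest neighbour over the range of the set, against Dixon's critical value. Chance alone marks about 1 in 20 such sets. In Lta without stimulus at 6 h, library 1 stood apart at 0.888, with 1.31 CPM. In Lta without stimulus at 24 h, library 43 stood apart at 0.923, with 0.0753 CPM from 6 reads. In Ltb with the stimulus at 24 h, library 56 stood apart at 0.839, with 2.5 CPM.

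The response to IFN-γ plus CD40L differed between 24 h and 6 h, by limma's test of the difference, for 5 members. The log2 difference was 1.98 for Lta, 1.16 for Tnfsf9, -4.31 for Tnfsf10, -2.98 for Tnfsf13b and 1.61 for Tnfrsf1b. What lies behind these differences was not tested.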

How the results depend on the processing

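Of 119 single-gene results, 3181 values under the alternatives kept direction and side of the threshold, 40 lost a call, 47 gained one and 33 turned sign. The cause was not tested where a value is given below without a reason.

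With a mean of at least 5 CPM, fewer genes were tested, and those called numbered 3275 for the stimulus at 6 h, 2554 at 24 h, 2658 for the difference, 1446 for time without and 2746 with the stimulus, and 5 for genotype at 6 h without stimulus. With no minimum fold change they numbered 10003, 9564, 8588, 8233 and 9763, and 20, 122 and 269 for genotype at 6 h without stimulus and at 24 h without and with it, with 8 members called at 24 h, 8 for the difference, 5 for time without stimulus and 1, Tnf, for genotype at 24 h without stimulus. With treat at a fold change of 1.2 they numbered 7923, 7130, 6574, 5054 and 7482, and 6, 13 and 4, with 8 members for the difference and 5 for time without stimulus. Quantile normalization gave 5 members for time without stimulus and 3 with it, beside 2666 and 3906 of all 12782 genes. It gave 5 genes for genotype at 6 h with the stimulus. Without a trend, genotype at 24 h gave 14 and 5 genes. Voom weights gave 1 member, Tnfsf13b, for genotype at 24 h with the stimulus, beside 70 of all genes. Fits of 1 time gave 4 genes at 6 h and 0 at 24 h for genotype with the stimulus. By tag, genotype at 24 h gave 2 and 3 genes.

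Signs turned under quantile normalization for Tnfrsf1b with the stimulus at 24 h (-0.36), Tnfrsf1a in the difference (0.10) and in time with the stimulus (0.02), Nfam1 for genotype at 6 h with the stimulus (0.01), and Zfp36 at 24 h (-0.39). Median centring turned Ltb in the difference (-0.15), as did voom weights (-0.02). Own totals turned Ltb (-0.55), Tnfsf9 (-0.23) and Ltbr (-0.26) at 6 h, Ltb (-0.15), Tnfrsf1b (-0.01) and Zfp36 (-0.26) at 24 h, and Nfam1 (0) for genotype. Of the genotype results tried under every setting, the tag turned Tnf (0.06), Fas (0.08), Tnfrsf1b (0.10) and Nfam1 (0.04) at 24 h without and Tnfsf13b (-0.63), Tnfrsf1a (0.11) and Tnfrsf1b (0.18) with the stimulus.

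Leaving out 1 library, where a lone library is taken to vary like the other groups, gave 4912 to 5173 genes at 6 h, 4168 to 4265 at 24 h, 3885 to 4067 for the difference, 2566 to 2730 and 4174 to 4326 for time, and 1 to 40, 0 to 126, 7 to 64, 1 to 182 and 0 to 55 for genotype. Members called were 7 at 6 h, 5 at 24 h, 4 to 5 for the difference, 3 to 4 and 4 to 6 for time, and 0 to 1 for genotype with the stimulus at each time. Ltb in the difference ranged from -0.17 to 0.19, Nfam1 for genotype at 6 h with the stimulus from -0.05 to 0.04, Map3k8 at 24 h from -0.10 to 0.03 and Zfp36 at 24 h from -0.01 to 0.16. Lta for time with the stimulus also lost its call under quantile normalization, median centring, other variance models, treat and the tag. Low counts limit Lta, Tnfsf10 and Tnfsf13b without stimulus.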

Other observations

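Small counts in this table were mostly even. Of the values from 1 to 20 reads, 80.6% to 89.6% in each library were even numbers. Whether both mates of a read pair were counted was not tested, and if so the read numbers given for genes with low values would overstate the number of fragments.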
